A study of Homo sapiens with 9 samples.

Results

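The second of a pair of small interfering RNAs against the histone demethylase gene KDM5A (KD2) was set against an siRNA against luciferase (Luc), a gene that human cells lack, which served as the control. The 3 KD2 and 3 Luc arrays, 6 of the 9 arrays in the series, were compared across every feature detected (p under 0.05) on 3 or more of the 6. A feature is a gene symbol, represented by its brightest probe, or a probe without a single symbol. In all 12218 of 39555 features passed, 9869 of them with a symbol, and each was read as a log2 intensity after background correction and quantile normalization. All groups were made from MDA-MB-231, a human breast cancer cell line without estrogen receptor and with mesenchymal features, and RNA was taken 72 h after the siRNA was given. The remaining 3 arrays held cells given the first KDM5A siRNA (KD1). They were normalized together with the 6 and share in the estimate of the spread behind every p-value. Their levels are given where KD2 is set against KD1.

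KDM5A, also named RBP2 or JARID1A, is an enzyme that erases methylation of histone H3 at lysine 4, a mark found at active promoters, and acts mainly as a repressor of transcription. An siRNA loads into an Argonaute protein and leads it to matching transcripts, and each siRNA sequence can also lower other transcripts through partial matches. The level of KDM5A is not analysed here, because no probe carried its symbol in the annotation used, so the depth of the knockdown is not given.

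Between 15370 and 17538 of 48799 probes were detected on each of the 6 arrays. Arrays of 1 group correlated at 0.986 to 0.989 over the tested features, and KD2 with Luc arrays at 0.966 to 0.969. All 6 MDA-MB-231 markers were detected, with VIM, the intermediate filament gene vimentin, at a mean log2 intensity of 14.31 in Luc and 14.41 in KD2. VIM, CD44 and CAV1 were not called. AXL was called lower (log2 fold change -0.43), and MSN and S100A4 were called higher (0.57 and 0.75). Of 5 luminal markers GATA3 alone was detected. Of the leukocyte genes PTPRC and CD3E were undetected on all 6 arrays, and CD3D was detected on 1 KD2 array and 0 Luc arrays. CD68, CD14 and LAPTM5, on the same list, were detected on all 6 arrays. The summed intensity over all 6 list members was 1942 to 2167 in Luc and 2887 to 3226 in KD2. CD68 alone was called (log2 fold change 0.62), and the part of this list in other results was not tested. Of 5 fibroblast markers THY1, LUM and FAP were undetected on all 6 arrays, DCN was detected on 1 Luc array, and PDGFRA was detected on all 6 and not called at -0.63 (summed level of the 5 markers 153 to 193.5 in Luc, 140 to 143.4 in KD2). A longer list of 13 fibroblast genes had 3 measured, PDGFRA among them, and the others rose, PDGFRB by 1.32 and PI16 by 1.295. The part of these genes in other results was not tested. All arrays lay on 1 slide with Luc and KD2 arrays in alternate positions. The small number of arrays limits the precision. Whether each array stands for its own culture is not stated in the labels, so the p-values reflect the spread of these samples alone, possibly a technical one. In bulk RNA, fewer cells of one kind and less RNA per cell cannot be told apart.

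With KD2, 3091 features were called at a Benjamini-Hochberg adjusted p under 0.05 by limma, which is 25.3% of those tested. Of these 1494 rose (12.2%) and 1597 fell (13.1%), and the median change of a call was 0.71 on the log2 scale. A change of 1 log2 unit or more was reached by 608 calls (4.98%), 305 higher and 303 lower, and 2 units or more by 37. Calls were fewest among dim features: 11.95% of the lowest of 4 bins by Luc level were called, against 32.44% of the highest bin, where 386 rose and 605 fell. The KD2 and Luc arrays did not overlap for 42.1% of features, which makes such separation common here. The median of all tested features was -0.0012 on the log2 scale. The plot of change against control level shows the largest rises at low to middle levels, with falls of like size reaching up to the bright genes TRIB3 and UPP1.

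**Figure D1:**
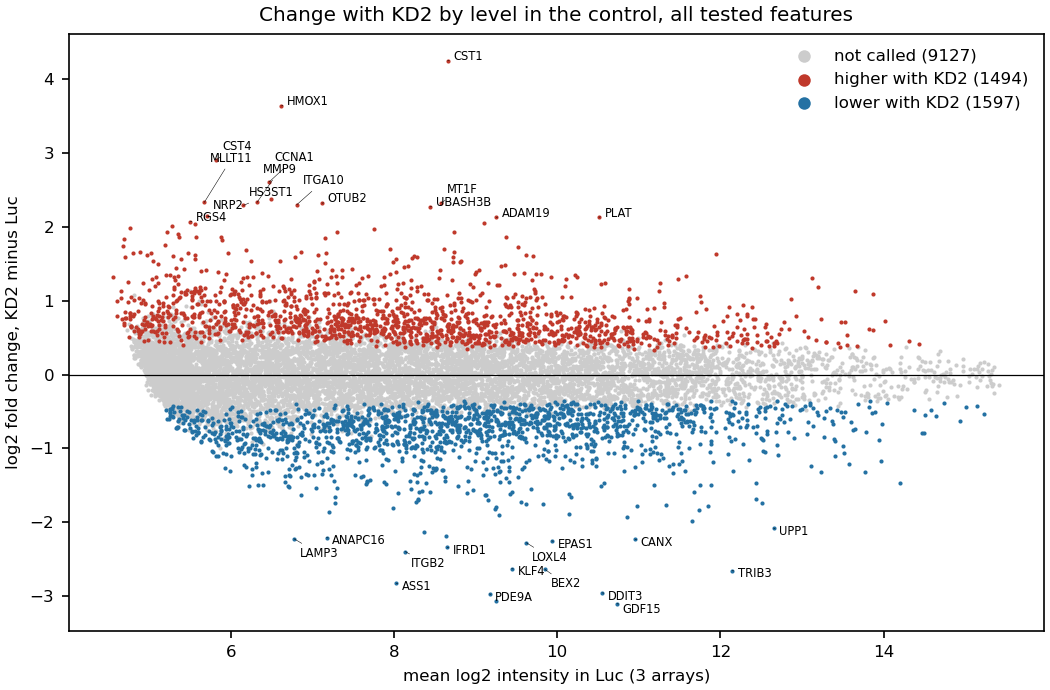
Log2 fold change of KD2 against Luc (vertical axis) against the mean log2 intensity in Luc (horizontal axis) for the 12218 tested features, 1 point each. Red points are the 1494 features called higher, blue points the 1597 called lower, grey points were not called, and the 15 largest rises and falls among named genes carry their symbols, from CST1 at 4.25 to GDF15 at -3.10.

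Several of the largest falls belonged to the stress and amino acid response run by the transcription factor ATF4. ATF4 protein is made when the translation factor eIF2-alpha is phosphorylated, in shortage of amino acids, in endoplasmic reticulum (ER) stress or in shortage of heme. It then switches on genes of amino acid synthesis, uptake and tRNA charging together with further stress regulators. Of 34 measured ATF4 targets 28 fell and 0 rose, against 13.1% lower and 12.2% higher over all tested features, and the list's median log2 fold change was -0.95 against -0.0012. ATF4 itself read 13.30, 13.42 and 13.40 on the Luc arrays and 12.70, 12.76 and 12.63 with KD2, a 1.60-fold fall (log2 fold change -0.68, SE 0.11, adjusted p = 0.00199). ATF4 activity is set largely by translation of this transcript, which the arrays do not read.

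GDF15, a secreted cytokine released by stressed cells, had the largest fall of any named gene. It read 10.55, 10.75 and 10.90 in Luc and 7.90, 7.41 and 7.58 with KD2, 8.59-fold lower (log2 fold change -3.10, SE 0.16, adjusted p = 3.37e-06). DDIT3, which encodes the stress transcription factor CHOP, read 10.49, 10.56 and 10.60 in Luc and 7.80, 7.57 and 7.42 with KD2, a log2 fold change of -2.96 (SE 0.15, adjusted p = 3.22e-06). TRIB3, a pseudokinase gene induced by ATF4 and CHOP, went from 12.30, 11.89 and 12.24 to 9.54, 9.26 and 9.67 (log2 fold change -2.66, SE 0.15, adjusted p = 7.68e-06). For all 3 genes every KD2 array lay more than 2 log2 units below every Luc array. Further regulators on the list fell: CEBPG changed by -1.92 and CEBPB by -1.32, both C/EBP factors that pair with ATF4, ATF3 by -1.44, NUPR1, a stress cofactor gene, by -1.50 and PPP1R15A, the phosphatase subunit that ends the response, by -1.74. NUPR1 was detected on 1 of 3 KD2 arrays, and so was CHAC1, a glutathione-degrading enzyme gene, at -1.19.

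The enzymes and carriers of amino acid supply moved the same way. ASNS, asparagine synthetase, read 14.18, 14.10 and 14.33 in Luc and 12.76, 12.55 and 12.89 with KD2, 2.77-fold lower (adjusted p = 5.94e-05). The serine pathway enzyme genes PHGDH, PSAT1 and PSPH had log2 fold changes of -1.37, -1.24 and -0.59. In mitochondrial one-carbon metabolism SHMT2 changed by -0.87 and MTHFD2 by -1.14. Among carriers, SLC1A5 (glutamine) changed by -1.26, SLC3A2 (the shared chain of several carriers) by -0.94, SLC7A5 (large neutral amino acids) by -0.77 and SLC7A1 (cationic amino acids) by -0.71. The 6 measured targets without a call had log2 fold changes of -0.13 for SLC7A11, the cystine carrier, -0.26 for CTH, -0.29 for ATF5, -0.32 for SLC38A2, -0.41 for ALDH18A1 and -0.55 for JDP2. ASS1, the arginine-making enzyme argininosuccinate synthase, was not on the list and fell by 2.82, from 8.00, 8.04 and 8.04 to 5.46, 5.28 and 4.87 (adjusted p = 7.68e-06), with a second, dimmer ASS1 probe at -1.22 and another, near background, not called at -0.23.

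KD1, which shares the Luc arrays, had a median log2 fold change of -0.19 over these 34 genes. By direct test 26 of the 34 were lower with KD2 than with KD1 and 0 were higher, where 14.2% of all tested features were lower and 15.7% higher with KD2. DDIT3 lay at a difference of -2.84 from KD1 in the mean (adjusted p = 3.20e-06), and GDF15 gave a KD2 minus KD1 difference of -3.30 (adjusted p = 2.60e-06). PCK2, mitochondrial PEP carboxykinase, was among those without such a difference: it changed by -1.51 with KD2 and by -1.10 with KD1 (KD2 minus KD1 -0.41, adjusted p = 0.0616).

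**Figure D2:**
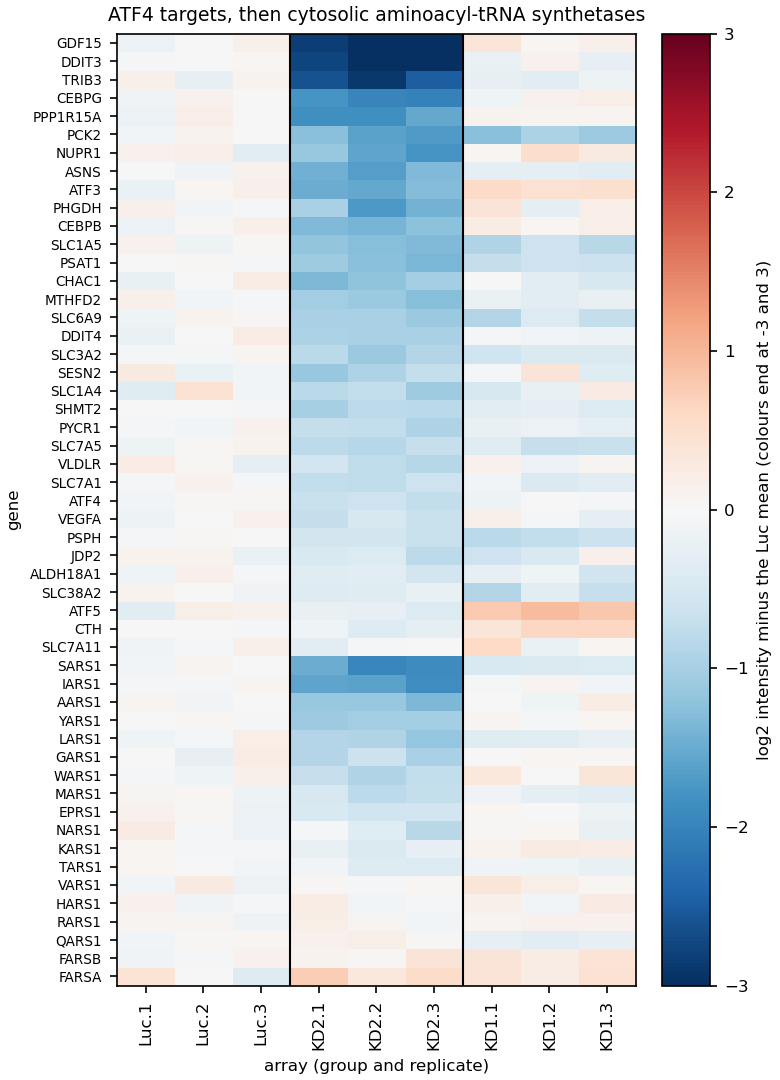
Log2 intensity minus the Luc mean, by colour from -3 (blue) to 3 (red), for the 34 measured ATF4 targets and then the 18 measured cytosolic aminoacyl-tRNA synthetase genes (rows) on each of the 9 arrays (columns, Luc, KD2, KD1). The KD2 columns are blue for most rows, deepest for GDF15, DDIT3 and TRIB3, while the KD1 columns are paler for these 3 genes.

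Genes of ER protein folding were called in both directions. The unfolded protein response uses ATF4 as 1 of its arms, and its other arms, the factors XBP1 and ATF6, switch on chaperones. Of 33 measured genes of the unfolded protein response and ER folding, 4 rose and 7 fell (12.1% and 21.2%), with a median log2 fold change of -0.06. Over all features 12.2% rose and 13.1% fell. HSPA5, the main ER chaperone BiP, read 10.49, 10.64 and 10.47 in Luc and 10.43, 10.59 and 10.35 with KD2 (log2 fold change -0.08, SE 0.12, adjusted p = 0.697). HSP90B1, its partner GRP94, was not called either (0.07, adjusted p = 0.775). CALR, the lectin chaperone calreticulin, rose by 0.73 and CRELD2, an ER stress-induced gene, by 0.77. PDIA6, a disulfide isomerase gene, was called at 0.46 (adjusted p = 0.0418). CANX, which encodes calnexin, the membrane-bound relative of calreticulin, went the other way: it read 11.04, 10.90 and 10.92 in Luc and 8.82, 8.63 and 8.71 with KD2, 4.70-fold lower (adjusted p = 8.16e-06), and its other probe changed by -2.41. XBP1 changed by -0.69, SSR1, of the translocon-associated complex, by -0.90, and TMX1, a membrane thioredoxin, by -1.24. The count of rises in this list fell to 2 without Luc replicate 3, KD2 replicate 1 or KD2 replicate 3, while the count of falls did not drop below 7 under any setting tried.

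Promoters of 4 of these genes are shown with a stress element in capitals, to set the element bound by ATF4 beside the element bound by ATF6 and XBP1. The sequences are from RefSeq, build GRCh38.p14, 5′ to 3′ on the strand of the gene, taken from windows of 250 bases before to 50 after each start site. The amino acid response element was searched as TGATGCAAT or TGATGAAAC, and the ER stress response element as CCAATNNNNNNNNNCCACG, which contains a CCAAT box, each on both strands.
ASNS: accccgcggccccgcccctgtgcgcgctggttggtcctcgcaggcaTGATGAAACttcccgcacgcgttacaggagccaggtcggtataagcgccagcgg
HSPA5: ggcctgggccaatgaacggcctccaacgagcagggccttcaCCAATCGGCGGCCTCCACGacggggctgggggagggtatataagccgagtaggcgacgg
CALR: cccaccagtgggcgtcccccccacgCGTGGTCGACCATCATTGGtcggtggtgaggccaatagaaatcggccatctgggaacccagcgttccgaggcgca
CANX: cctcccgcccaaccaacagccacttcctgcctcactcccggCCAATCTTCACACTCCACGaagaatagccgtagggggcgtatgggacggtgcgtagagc
The stretches are chr7:97872423-97872522 (minus strand) for ASNS, chr9:125241351-125241450 (minus) for HSPA5, chr19:12938359-12938458 (plus) for CALR and chr5:179698737-179698836 (plus) for CANX. The element begins at -68 from the start site in ASNS, -66 in HSPA5, -225 in CALR, where it lies on the opposite strand, and -151 in CANX. The amino acid response element was found in 2 of 28 ATF4 targets with a promoter in the table (7.14%, ASNS and SLC7A1), and in 0.575% of all 27305 genes there. The ER stress response element was found in 7 of 31 genes of the ER folding list (22.6%) and in 0.0916% of all genes, and in 0 of the 28 ATF4 targets. The 7 holders were CRELD2, CALR and PDIA6, which rose, HSPA5 and HSP90B1, which were not called, and XBP1 and CANX, which fell. A match describes these letters only, and a gene without one may have other forms of the element outside the window.

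Cytosolic aminoacyl-tRNA synthetases load amino acids onto tRNAs, and many are ATF4 targets. Of 18 measured, 9 fell (50%) and 0 rose, where 13.1% fell and 12.2% rose over all features. The median log2 fold change was -0.48 (0.02 with KD1). By test 10 were lower and 1 higher with KD2 than with KD1, where 14.2% and 15.7% of all features were. SARS1 (serine) read 10.91, 11.05 and 10.98 in Luc and 9.49, 9.01 and 9.09 with KD2, 3.44-fold lower (adjusted p = 4.41e-05). IARS1 (isoleucine) changed by -1.69, AARS1 (alanine) by -1.21, YARS1 (tyrosine) by -1.06 and LARS1 (leucine) by -0.98, and the remaining calls were GARS1, WARS1, MARS1 and EPRS1 at -0.84 to -0.54. Ribosome biogenesis factors, which cut and assemble ribosomal RNA, counted 13 falls and 1 rise among 38 (34.2% and 2.6%), with a median of -0.38 (0.01 with KD1). NOB1, the nuclease of the last cut of 18S ribosomal RNA, changed by -1.27, its partner PNO1 by -1.61, and RRP12 and HEATR1 by -0.90 and -0.75. The count of falls was 8 without Luc replicate 1 or KD2 replicate 2. Of 66 cytosolic ribosomal protein genes 14 fell and 0 rose (21.2%), and the largest change was -1.19 for RPL37. Since ribosomal protein genes have many near-identical pseudogenes, their probes could read other copies.

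Secreted protease inhibitors were mostly higher with KD2. Cystatins bind and block cysteine proteases such as the cathepsins. Of 14 measured cystatins and other secreted inhibitors 10 rose and 1 fell (71.4% and 7.1%), where 12.2% and 13.1% of all features did. The median was 0.94 for KD2, or 0.89 with the 3 genes undetected in 1 group set at their bound, and -0.24 for KD1. By direct test 12 of the 14 were higher with KD2 than with KD1 and 0 lower. CST1, cystatin SN, had the largest rise of all: 8.58, 8.47 and 8.93 in Luc and 12.89, 12.90 and 12.93 with KD2, 18.99-fold higher (adjusted p = 2.08e-07), while it was lower with KD1, with a KD2 minus KD1 difference of 6.14. CST4, cystatin S, read 5.50, 5.57 and 6.40 in Luc and 8.88, 8.86 and 8.46 with KD2, with its other probe at 2.77. CST2, cystatin SA, was detected on 0 of 3 Luc arrays and on 3 of 3 with KD2, at least 3.14-fold higher (adjusted p = 8.50e-05). The 3 genes are near-identical neighbours, so each probe could read the others' transcripts. More distant relatives rose as well: CST3, cystatin C, read 12.86, 13.20 and 13.31 in Luc and 14.20, 14.51 and 14.59 with KD2 (log2 fold change 1.31, adjusted p = 0.000333), and CSTB, a cystatin that stays inside cells, rose by 0.91, CST7 by 0.86 and CST6 by 0.64. Of the other inhibitors TFPI2, which blocks plasmin, rose by 1.39 and SERPINA1, alpha-1-antitrypsin, by 1.09, while SERPINA3, undetected with KD2, was at least 1.12-fold lower.

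Proteases that act on the matrix, and the TIMP proteins that inhibit them, counted 8 rises and 3 falls among 25 (32% and 12%). Over all features 12.2% rose and 13.1% fell. The median of the 25 was 0.25 (-0.53 with KD1). MMP9, the gelatinase B that cleaves basement membrane collagen, read 6.23, 6.06 and 6.68 in Luc and 8.73, 8.64 and 8.58 with KD2, 5.03-fold higher (log2 fold change 2.33, SE 0.17, adjusted p = 2.96e-05). PLAT, tissue plasminogen activator, went from 10.51, 10.43 and 10.59 to 12.60, 12.55 and 12.78 (log2 fold change 2.13, adjusted p = 4.41e-05). ADAM19, a membrane metalloprotease that sheds growth factors, read 8.94, 9.38 and 9.44 in Luc and 11.30, 11.51 and 11.33 with KD2 (2.13, adjusted p = 2.81e-05). The groups did not overlap for these 3 genes, as the rule for naming them required, and all 3 were higher with KD2 than with KD1. For MMP9, not above background with KD1, KD2 exceeded KD1 by at least 10.7-fold, while PLAT and ADAM19 differed by 3.06 and 2.28 on the log2 scale. The protease genes MMP14 and ADAM8 rose by 1.40 and 1.05 and the urokinase receptor gene PLAUR by 1.36. Inhibitors rose beside them, TIMP3 by 1.62 and TIMP1 by 1.18. The falls were SERPINE2, ADAM9 and ADAM17 at -0.99, -0.77 and -0.59. MMP1, interstitial collagenase, was near its detection limit and not called (0.08, adjusted p = 0.835).

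**Figure D3:**
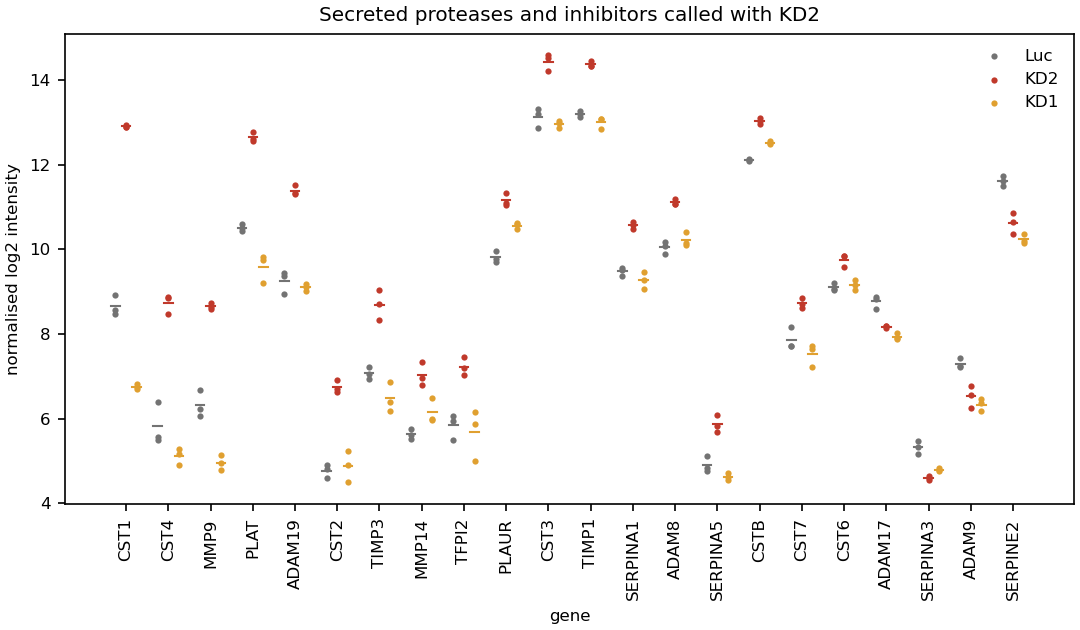
Normalised log2 intensity (vertical axis) of the secreted proteases, inhibitors and related genes that were called with KD2, 1 column a gene, with a point for each array of Luc (grey), KD2 (red) and KD1 (orange) and a bar at each group's mean. From CST1 to CST6 the KD2 points lie above the Luc points, and for the last 4 genes, ADAM17, SERPINA3, ADAM9 and SERPINE2, below them.

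Matrix proteins split between the directions. Of 29 measured 9 rose and 8 fell, where 12.2% and 13.1% did over all features, with a median of 0.30 for KD2 and -0.65 for KD1, and 18 were higher with KD2 than with KD1 while 4 were lower. TNC, tenascin C, a glycoprotein of the matrix around tumours, read 9.41, 9.01 and 9.28 in Luc and 7.56, 7.26 and 7.41 with KD2 (log2 fold change -1.82, adjusted p = 5.82e-05), and its second probe changed by -0.95. COL12A1, a collagen that coats fibrils, changed by -1.46 and COL5A1 by -0.94, and the laminin chains LAMA5, LAMB1 and LAMC1 by -0.63, -0.55 and -0.51. EFEMP1, fibulin-3, rose by 1.13, and FN1, fibronectin, was at least 1.61-fold higher by its brightest probe, which was undetected on the Luc arrays. Its other probes were not called, and 1 of them was detected on 1 Luc array and on 0 KD2 arrays. The basement membrane collagens COL4A1, COL4A2 and COL4A5 rose by 0.50, 0.59 and 0.62. Leaving out 1 array moved these counts: 4 rises were counted without KD2 replicate 2, and 5 falls without Luc replicate 2 or KD2 replicate 2.

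Adhesion receptors and guidance receptors were among the largest single changes. ITGA10, a collagen-binding integrin chain, read 6.81, 7.01 and 6.61 in Luc and 9.28, 9.05 and 9.00 with KD2, 4.92-fold higher (adjusted p = 2.96e-05). ITGB2, the beta chain of leukocyte integrins, fell from 8.05, 8.39 and 7.98 to 5.78, 5.56 and 5.88 (log2 fold change -2.40, adjusted p = 0.000125), with its other probe at -1.88. The whole list of 32 integrin and focal adhesion genes counted 5 rises and 4 falls (15.6% and 12.5%), near the 12.2% and 13.1% over all features. NRP2, neuropilin-2, a co-receptor of semaphorins and VEGF-C, read 6.44, 5.55 and 5.13 in Luc and 7.91, 7.73 and 7.91 with KD2 (log2 fold change 2.14, SE 0.28, adjusted p = 0.000515). Its 3 dimmer probes were not called, at 0.13, 0.03 and 0.64. CLDN1, a tight junction gene, changed by -1.80 and PKP2, of desmosomes, by -0.92, among 5 falls and 3 rises in 14 epithelial genes (35.7% and 21.4%). Of the falls 3 were left without Luc replicate 3 or KD2 replicate 3. Of the rises 0 were left without Luc replicate 2 and at most 2 without any other array. The summed level of the 5 epithelial markers was 738.8 to 862.1 in Luc and 549.2 to 639.4 in KD2, with KRT5 and KRT14 undetected and EPCAM at -0.50, and its part in these values was not tested. KLF4, a zinc finger transcription factor of epithelial cells, read 9.53, 9.30 and 9.50 in Luc and 7.32, 6.82 and 6.30 with KD2 (-2.63, adjusted p = 7.94e-05), with a second probe near background not called at -0.45. LOXL4, which cross-links collagen, changed by -2.28. Other genes of the largest changes were OTUB2, a deubiquitinase gene (2.32), MLLT11, a fusion partner of MLL in leukemia (2.33), IFRD1, a transcriptional co-regulator gene (-2.34), and ANAPC16, a subunit of the anaphase-promoting complex (-2.21), detected on 1 of 3 KD2 arrays.

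**Figure D4:**
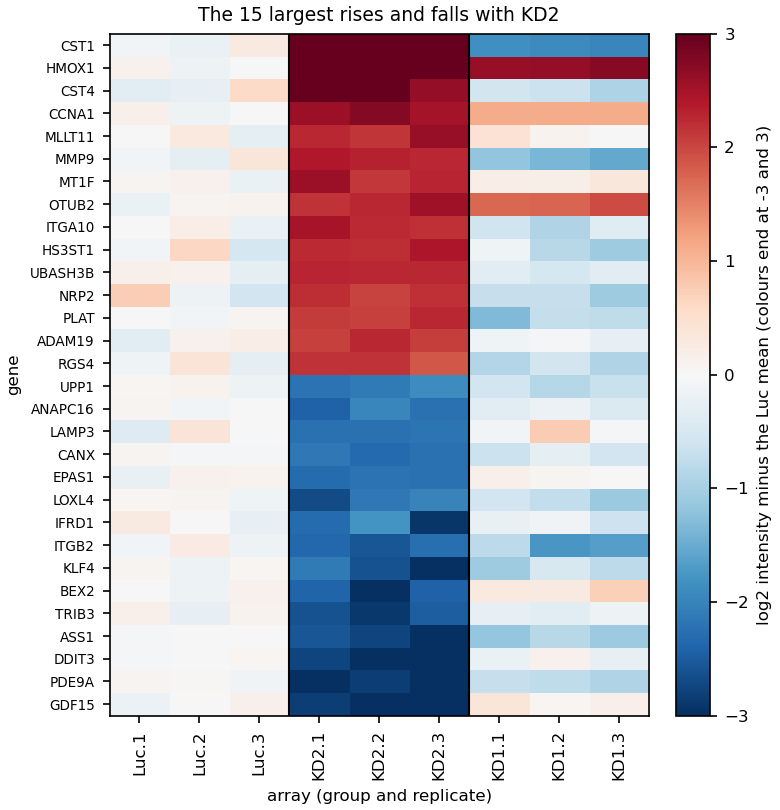
Log2 intensity minus the Luc mean, by colour from -3 (blue) to 3 (red), of the 15 genes with the largest rises and the 15 with the largest falls in KD2 against Luc (rows), on each of the 9 arrays (columns). KD2 arrays of a row have 1 colour throughout, since the genes were chosen for it; in the KD1 columns HMOX1, OTUB2 and CCNA1 are red while CST1 and MMP9 are blue, the latter at values not above background.

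Growth factor signalling genes moved both ways. EGFR, the epidermal growth factor receptor, read 9.23, 9.46 and 9.58 in Luc and 7.60, 7.98 and 7.85 with KD2 (log2 fold change -1.61, adjusted p = 6.44e-05), while a second, dimmer probe was not called at -0.22. Its ligand genes diverged, with HBEGF at 1.15 and TGFA at -0.91. Among feedback inhibitors of the ERK cascade DUSP4, a phosphatase gene, rose by 1.22 and DUSP1 fell by 0.78. SPRY1, another feedback gene, rose by 1.03, from 10.75, 10.92 and 10.97 to 11.92, 12.04 and 11.77. In all 9 of 42 genes of receptor kinases, ligands and ERK feedback rose and 7 fell (21.4% and 16.7%). Over all features 12.2% rose and 13.1% fell. UBASH3B, a phosphatase that acts on tyrosine kinases, read 8.59, 8.57 and 8.17 in Luc and 10.73, 10.70 and 10.71 with KD2 (2.27, adjusted p = 1.18e-05). RGS4, which shortens G protein signals, rose by 2.07, and HS3ST1, a heparan sulfate sulfotransferase gene, by 2.29. PDE9A, a cyclic GMP phosphodiesterase, fell from 9.25, 9.21 and 9.06 to 6.18, 6.35 and 6.06 (-2.97, adjusted p = 1.28e-06), with its dimmer second probe not called at -0.64. In the TGF-beta pathway 4 of 21 measured genes rose and 4 fell (19.05% each), with a median of -0.07. The count of falls was 2 without Luc replicate 3 or KD2 replicate 1. Among these genes the feedback genes PMEPA1 and SMAD7 rose by 1.24 and 1.13 and the inhibitor FST by 1.08, while the receptor BMPR2 fell by 1.02.

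Inflammatory genes were more often lower than higher: 11 of 29 genes of NF-kB, cytokines and chemokines fell (37.9%) and 4 rose (13.8%). Over all features 13.1% fell and 12.2% rose. The list's median was -0.19 (0.13 with KD1). CXCL8, interleukin-8, a neutrophil attractant, read 12.23, 12.15 and 12.15 in Luc and 11.29, 11.33 and 11.29 with KD2 (-0.87, adjusted p = 0.000637). CXCL2 changed by -1.86, IL6 by -0.90 and TNFSF10, the death ligand TRAIL, by -1.33. By direct test 14 of the 29 were lower with KD2 than with KD1 and 2 higher, with CXCL2 apart by -2.69. CXCR4, the chemokine receptor linked to homing of breast cancer cells, was at least 2.51-fold higher with KD2 by its brightest probe, which was undetected in Luc. Its other probes were not called, and 1 of them was detected on 1 Luc and 2 KD2 arrays. Interferon-stimulated genes counted 9 rises and 4 falls among 48 (18.75% and 8.3%). RIGI, a sensor of double-stranded RNA, rose by 1.09 and SP110 by 1.01, while XAF1 fell by 1.52; SP100 changed by -1.37, with a second detected probe not called (-0.20).

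Cell division genes as groups stayed near the background of all features. Of 45 mitosis genes 7 rose and 4 fell (15.6% and 8.9%), and of 42 S phase genes 8 rose and 4 fell (19.05% and 9.5%). Over all features 12.2% rose and 13.1% fell. For mitosis 3 rises were counted without Luc replicate 3 or KD2 replicate 2. For S phase 5 rises were counted without KD2 replicate 2 or KD2 replicate 3, and 2 falls without Luc replicate 3. Single regulators moved further. CDKN1A, the CDK inhibitor p21, read 10.43, 10.63 and 10.56 in Luc and 11.74, 11.74 and 11.79 with KD2 (log2 fold change 1.22, adjusted p = 8.13e-05), while CDKN1B, the inhibitor p27 whose gene is a known target of KDM5A, was not called (0.00, adjusted p = 0.995). CDK6, a G1 kinase, fell from 11.02, 11.40 and 11.14 to 9.62, 9.68 and 9.76 (-1.50, adjusted p = 5.61e-05). MYC fell by 0.70. CCNA1, cyclin A1 of germ cells and some tumours, read 6.63, 6.31 and 6.47 in Luc and 9.03, 9.23 and 8.96 with KD2. Of 24 measured p53 targets, which include CDKN1A, 3 rose (12.5%: CDKN1A, TNFRSF10B and TP53I3) and 9 fell (37.5%). In the cell death machinery APAF1, the scaffold of the apoptosome, rose by 1.33 and its partner CASP9 by 0.90, and BCL2, which blocks that route, fell by 1.39 with another detected probe at -1.17; CASP9 lost its call without KD2 replicate 1 or KD2 replicate 2. Of 32 apoptosis regulators 7 rose and 2 fell (21.9% and 6.25%), with 3 rises without KD2 replicate 2.

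HMOX1, the heme-degrading enzyme heme oxygenase, had the second largest rise. It read 6.76, 6.46 and 6.64 in Luc and 10.14, 10.36 and 10.28 with KD2, 12.4-fold higher (adjusted p = 2.08e-07). HMOX1 is a target of the oxidant-sensing factor NRF2. Of 27 genes of NRF2 and of heme and iron handling 7 rose and 2 fell (25.9% and 7.4%). Over all features 12.2% rose and 13.1% fell. The median of the 27 was 0.01, with GCLM of glutathione synthesis at 1.21 and NQO1, a standard NRF2 target, at -0.47. The count of rises was 4 without KD2 replicate 2, and the count of falls was 0 without Luc replicate 2 or 3 or any 1 of the KD2 replicates. Oxidative phosphorylation counted 16 rises (24.6%) and 0 falls among 65 subunit genes, with a median of 0.24, and 8 rises without Luc replicate 2. The proteasome counted 9 rises (26.5%) and 0 falls among 34, median 0.16, led by PSMD3 at 1.15. Histone genes counted 13 rises and 1 fall among 25 (52% and 4%), but replication-dependent histone genes are near-identical and their probes could read each other. EPAS1, the hypoxia factor HIF-2 alpha, fell from 9.70, 10.06 and 10.04 to 7.62, 7.72 and 7.70 (-2.25, adjusted p = 7.68e-06), while the glycolytic genes ENO2 and ALDOC rose by 1.202 and 1.05. UPP1, uridine phosphorylase, which releases ribose for energy, read 12.71, 12.75 and 12.49 in Luc and 10.43, 10.53 and 10.76 with KD2 (-2.08, adjusted p = 1.91e-05).

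**Figure D5:**
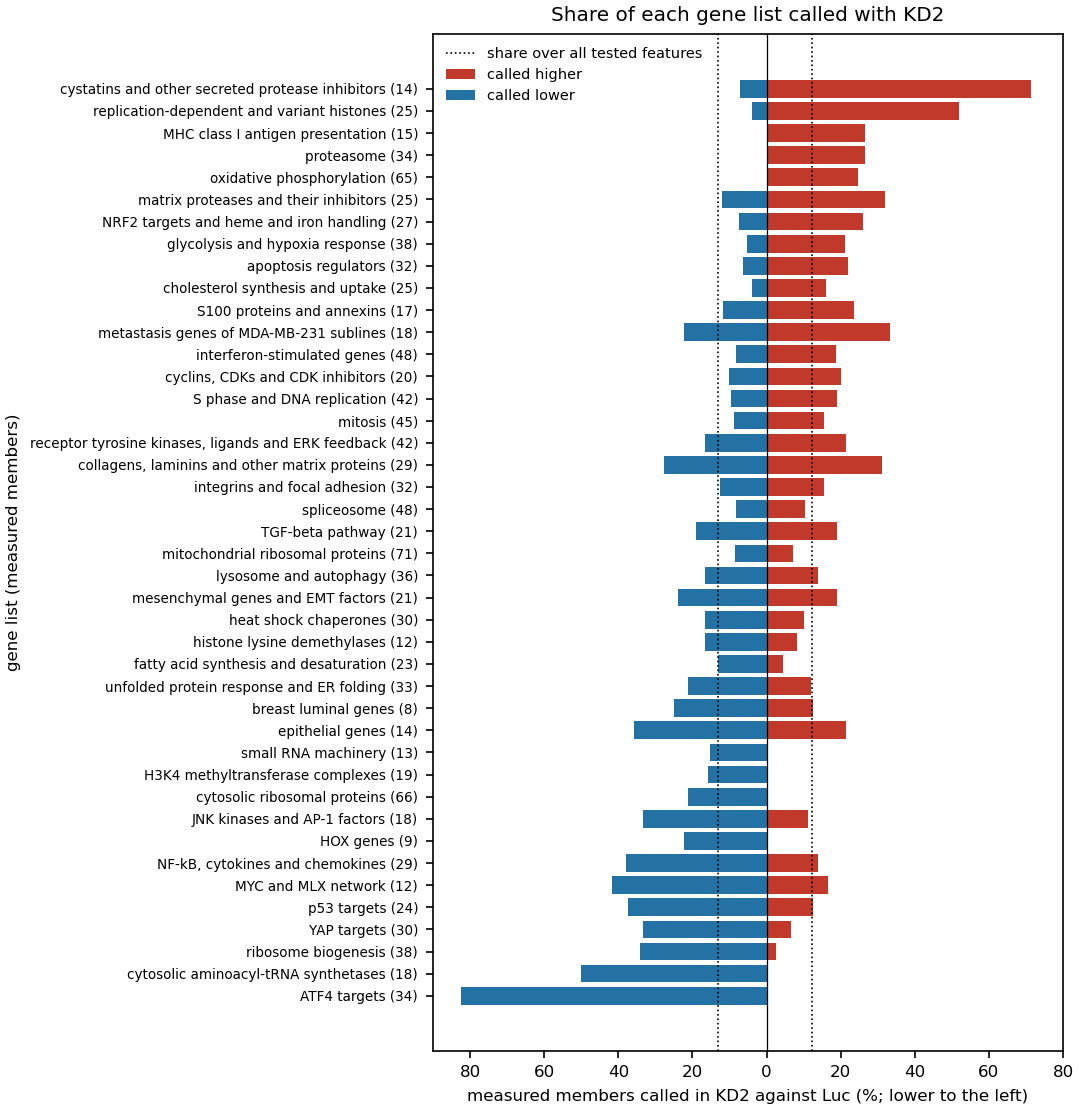
Percent of the measured members of each gene list that were called higher (red, to the right) or lower (blue, to the left) in KD2 against Luc, with the number measured in brackets; lists of at least 8 measured genes are ordered by the percent higher minus the percent lower. Dotted lines mark the shares over all tested features, 12.2% higher and 13.1% lower, and ATF4 targets (28 of 34 lower) and cystatins and other inhibitors (10 of 14 higher) stand furthest from them.

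Of 30 targets of YAP, the co-activator that the Hippo pathway restrains, 10 fell and 2 rose (33.3% and 6.7%), with a median of -0.29 (-0.23 with KD1). With any 1 of the 6 arrays left out, 7 or 8 falls were counted. Over all features 13.1% fell and 12.2% rose. CCN1, a matricellular YAP target, read 13.26, 13.26 and 13.67 in Luc and 12.33, 12.38 and 12.19 with KD2 (log2 fold change -1.10, adjusted p = 0.00051), and WWC1, an upstream Hippo gene, changed by -1.31. Among 18 JNK kinases and AP-1 factors 6 fell and 2 rose (33.3% and 11.1%), with MAPK8, the kinase JNK1, at -1.45. Without Luc replicate 2 or KD2 replicate 3, 3 falls were counted. Leaving out Luc replicate 3 gave 3 rises in that list, and leaving out any other of the 6 arrays gave 1.

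Heat shock chaperones counted 3 rises and 5 falls among 30 (10% and 16.7%), near the 12.2% and 13.1% over all features. The falls included HSPA9, the mitochondrial chaperone mortalin (-1.31), and CCT4 and CCT5, subunits of the chaperonin that folds actin and tubulin (-1.25 and -0.99), while HSPA1A rose by 0.94. HSPA1B, a near-identical gene whose transcripts a probe may not separate from it, was not called at 0.26. MAP1LC3B, the autophagosome marker LC3, read 11.46, 11.46 and 11.34 in Luc and 10.26, 9.99 and 10.04 with KD2 (log2 fold change -1.33, adjusted p = 8.13e-05), in a list of 36 lysosome and autophagy genes with 5 rises and 6 falls (13.9% and 16.7%), also near those shares. Without KD2 replicate 2 that list counted 1 rise. Of 17 S100 proteins and annexins, which bind calcium, 4 rose and 2 fell (23.5% and 11.8%). S100A16 changed by 1.29 and S100A4, linked to motility of tumour cells, by 0.75. The probes of S100A13 disagreed: the brightest and 1 other rose by 1.32 and 1.43, and the remaining detected ones, not called, lay between -0.66 and 0.47. MLX, partner of the glucose sensor MondoA, rose by 1.67, and TXNIP and ARRDC4, targets of that pair, changed by -0.46 and -1.06. The ARRDC4 values of the groups overlapped, at 6.54, 6.39 and 5.57 in Luc against 4.98, 4.71 and 5.63 with KD2, where it was detected on 1 array.

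Of 18 genes that earlier work linked to metastasis of MDA-MB-231 sublines, 6 rose and 4 fell (33.3% and 22.2%). CXCR4, PLAAT4 (1.36), HBEGF, FST, PTGS2 (0.92) and ADIRF (0.39) were higher, and TNC, IL11 (-1.48), DUSP1 and FSCN1 (-0.47) lower. IL11, a cytokine that acts on bone, read 7.67, 7.79 and 8.25 in Luc and 6.44, 6.45 and 6.38 with KD2. Over all features 12.2% rose and 13.1% fell. Cholesterol synthesis counted 4 rises and 1 fall among 25 (16% and 4%). It had 1 rise without Luc replicate 3 or KD2 replicate 1 and 0 falls without replicate 1 or 3 of either group. Fatty acid synthesis counted 1 rise and 3 falls among 23 (4.3% and 13%), with the acyltransferase gene GPAM at -1.02. The rise was not called when Luc replicate 1 or 2, or any KD2 replicate, was left out.

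KDM5B, the nearest measured relative of KDM5A, read 9.87, 10.02 and 9.97 in Luc and 10.24, 10.23 and 10.20 with KD2, without a call (0.27, SE 0.11, adjusted p = 0.107). Among 12 histone lysine demethylases 3 were called, 25% against the 25.3% over all features: 1 rose, KDM3B (0.68), and 2 fell, KDM4A (-0.57) and RIOX2 (-0.61), and each lost its call without Luc replicate 1, among other arrays. Of 19 genes of H3K4 methyltransferase complexes, which add the mark that KDM5A removes, 0 rose and 3 fell (15.8%, where 13.1% of all features fell), led by the shared subunit DPY30 at -0.69.

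At the edge of detection, judged by each gene's brightest probe, 56 features were detected on all KD2 arrays and no Luc array, and 143 the other way round. Of the 56, 41 were called higher, and of the 143, 77 were called lower, where 12.2% of all features rose and 13.1% fell. Such features pass the detection filter only through the group where they are high. Their counts therefore follow in part from the filter. Besides CST2 and CXCR4 the brightest with KD2 were B3GALT4, a glycosyltransferase gene (at least 2.71-fold higher), ALDH4A1, of proline breakdown (at least 2.56-fold), and PRSS33, a serine protease gene (at least 2.304-fold). Lost with KD2 were LAMP3, a lysosomal membrane gene (at least 3.05-fold lower), SLC22A15 (at least 2.13-fold), PPM1E, a phosphatase gene (at least 2.03-fold), TTC39B (at least 1.996-fold) and ALOX5AP, of leukotriene synthesis (at least 1.79-fold). LAMP3 read 6.39, 7.16 and 6.77 on the Luc arrays against 4.54, 4.53 and 4.58 with KD2, where it was not above background, and its second probe changed by -0.48.

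KD2 against KD1, tested directly, gave 3658 calls, 29.9% of the features, with 1920 higher with KD2 (15.7%) and 1738 lower (14.2%). Among genes called in this test and against Luc, the 5 with the largest fitted differences above KD1 included CST1 (6.14), EFEMP1 (3.20) and PLAT (3.06), in log2 units, each detected on every KD1 array. The others were CST4 (3.61), detected on 1 of 3 KD1 arrays, and MMP9, detected on none of them and at least 10.7-fold higher with KD2 (adjusted p = 2.60e-06), so the order of these 2 is not settled. Furthest below were GDF15 (-3.30), BEX2, a small signalling adaptor gene (-3.07), DDIT3 (-2.84), CXCL2 (-2.69) and SLC47A1, an exporter of organic cations (-2.47). BEX2 read 9.85, 9.71 and 9.99 in Luc and 7.46, 6.76 and 7.42 with KD2. EFEMP1 lay above Luc with KD2 (1.13) and below it with KD1 (-2.06). MMP9 lay above Luc with KD2 (2.33) and was at least 2.13-fold lower with KD1 than in Luc. The KD1 arrays lay at other slide positions than the KD2 arrays, so position cannot be told apart from siRNA in this test.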

How the data were processed

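RNA from MDA-MB-231 cells was hybridised to Illumina bead arrays, 3 each for Luc, KD1 and KD2. The deposited intensities are linear probe signals, neither background-subtracted nor normalized, per the file headers and values. A detection p-value was deposited beside each intensity, per the file headers. The deposited series values, used only as an alternative, are near a log2 scale and quantile-normalized; lumi is named in the submitters' processing notes, with no version or steps in the sources used here.

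In limma 3.58.1 (R 4.3.3), neqc took the negative-control level from the deposited detection p-values and applied normexp background correction, an offset of 16, quantile normalization and log2. Of 48799 probes 28094 had 1 symbol, 13 several and 20692 none; 28055 symbols were updated by Entrez identifier with a RefSeq table (GRCh38.p14) and 39 kept. The brightest probe per symbol was used. A linear model over the 9 arrays held 1 mean per group (lmFit, eBayes; 6 residual, 10.3 total degrees of freedom; median residual SD 0.21), two-sided, with Benjamini-Hochberg adjustment over the 12218 tested features at 0.05. An exact test of 3 against 3 arrays cannot pass that threshold, so none was used. A gene undetected on every array of a group got a bound: its mean in the other group against the dimmest detected signals.

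The 44 gene lists (1552 genes, 1172 measured), the named-gene rule and the comparisons were chosen with earlier results of these data known. Lists are described by counts and medians, without a set test. Named were the 15 largest rises and falls without overlap between groups, up to 4 called genes of a list, the 5 furthest above and below KD1, up to 5 detected in 1 group only, and a fixed set (such as ATF4, HSPA5, CDKN1B); further list members are given with their values. Of 9869 tested genes 8165 had a RefSeq promoter.

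The replicate numbers were checked for pairing. Same-numbered KD2 and Luc arrays gave correlations of deviations of 0.124, 0.0135 and 0.0409, and the other pairs -0.107 to 0.0681. With 3 arrays a group this check cannot settle whether same-numbered arrays are paired. The main fit leaves the numbers out. The fit was tested on simulated data for the 12218 features of KD2 against Luc with known changes. Alternatives varied the arrays, background correction, scaling, offset, detection filter, probe choice and variance trend.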

Additional observations from a re-analysis of the deposited data

How the results depend on the processing

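For KD2 against Luc, 3091 calls became 2960 on the 6 arrays alone, 3802 without background correction, 3716 on the deposited values, 2277 without a detection filter and 3774 with an intensity trend, and 2216 to 2603 with 1 array left out (lowest without Luc replicate 2). KD2 against KD1 gave 2855 to 4166 calls in place of 3658. None of these total counts moved by over 1.5 times under the alternatives run. Median scaling gave 3195 calls, 55.1% of them higher in place of 48.3%. A replicate block on the 6 arrays gave 2636 calls. Whether the numbers pair the arrays is not settled. KD2 replicate 1 deviated most like Luc replicate 1 (0.124), and KD2 replicates 2 and 3 most like Luc replicate 3 (0.0681 and 0.0409). Of 185 named called genes 150 kept their call under every alternative in which they were tested, and none reversed. Detection on all 6 arrays left 163 of the 185 to test, and a detection p under 0.01 left 183. MUC1, RIOX2, PLIN3, XPO5, EBP, KMT2C and MSMO1 lost their call most often. List counts ran over the alternatives from 23 to 29 falls for ATF4 targets, 9 to 12 for aminoacyl-tRNA synthetases, 8 to 20 for ribosome biogenesis and 10 to 25 for cytosolic ribosomal proteins, and from 9 to 11 rises for cystatins and other inhibitors, 8 to 10 for matrix proteases, 7 (replicate block) to 28 (intensity trend) for oxidative phosphorylation and 6 to 14 for the proteasome. On the deposited values a log2 fold change came to a median of 66.8% (19.3% to 103%) of the value in the report, so sizes belong to the background-corrected scale. Signals near background limit the bounds, and the cause of these shifts was not tested.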

Other observations

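Metallothioneins, small proteins that bind zinc and copper, were on none of the lists and were picked out after their values were seen. Of 6 measured, 5 were called higher with KD2, where 12.2% of all features were. MT1F read 8.65, 8.70 and 8.37 in Luc and 11.15, 10.70 and 10.86 with KD2 (log2 fold change 2.33, adjusted p = 1.39e-05 by limma). MT1G rose by 1.69, MT1X by 1.63, MT2A by 1.095 and MT1E by 1.03, and MT1H was not called (0.78, adjusted p = 0.0511). Each of the 6 was higher with KD2 than with KD1 in the direct test, by 0.78 (MT1X) to 2.08 (MT1F). The genes are near-identical, so 1 transcript could be read by several of these probes.

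Receptors of the semaphorin guidance cues, also singled out after their values were seen, gave a second small group. PLXNA1, a plexin that signals together with neuropilins, read 8.35, 8.78 and 9.07 in Luc and 10.28, 10.34 and 10.57 with KD2 (log2 fold change 1.66, adjusted p = 0.000171). The brightest probe of NRP2 rose by 2.14, and its other probes were not called. NRP1, the relative of NRP2, was not called at -0.06. Among ligands SEMA6B rose by 1.11 and SEMA3A by 0.61, SEMA3F fell by 0.89, and the other 8 measured semaphorin genes were not called. Of all tested features 25.3% were called, 12.2% higher and 13.1% lower, so calls among the ligands were about as common as elsewhere.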
